A study of Homo sapiens with 6 samples.

Results

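The genes described here are 10 of the 62754 genes in the deposited count table: the IGF-binding protein genes IGFBP2, IGFBP3, IGFBP4, IGFBP5, IGFBP6 and IGFBP7, the IGF2 mRNA-binding protein genes IGF2BP1, IGF2BP2 and IGF2BP3, and IGF1R. They were chosen by name, as a list of these families and the receptor, and each was found in the table by its Ensembl identifier. RNA-seq was done on 3 libraries of control and 3 libraries of FAM60A-knockout HEK293 cells, to ask how loss of FAM60A, a subunit of the Sin3/HDAC co-repressor complex, affects gene expression. HEK293 cells come from human embryonic kidney, and the labels of both groups also name HEK293T, a derivative with the SV40 large T antigen. FAM60A-knockout cells had received Cas9 with several guide RNAs aimed at 3 regions of FAM60A and were kept as a puromycin-selected pool, not as a clone. The labels give the control cells no treatment beyond the word control, and they do not say whether the libraries of a group came from separate cultures, so p-values measure only the spread between these libraries.

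Insulin-like growth factors IGF1 and IGF2 signal through the receptor tyrosine kinase IGF1R. The secreted IGF-binding proteins hold the factors outside the cell, can block or prolong their action, and are released from them by proteases. IGF2BP1, IGF2BP2 and IGF2BP3 are a separate family: they are cytoplasmic RNA-binding proteins, named for their binding to IGF2 mRNA, that control the stability, transport and translation of many transcripts, and IGF2BP1 and IGF2BP3 are found mainly in fetal tissue and tumours.

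Total counts per library lay between 88361827 and 93346824. The transcript of the targeted gene, listed under its current symbol SINHCAF (ENSG00000139146), held 10165 to 12792 counts in the controls and 5449 to 5793 in the knockout libraries (log2 fold change -0.85, standard error (SE) 0.11, edgeR adjusted p = 0.00863), a call lost in the fits without knockout replicate 1, 2 or 3 (adjusted p 0.0571 to 0.0736). Its log2 fold change without control replicate 3 was -0.78. Control replicate 3 had the highest SINHCAF count of the 6 libraries, yet for 58.9% of the genes tested its level was closer to the knockout mean than to the mean of control replicates 1 and 2, and for 23.0% it differed at least 2-fold from the latter. It is therefore given apart, and fits with and without it are set side by side. The fit without it keeps 2 controls and leaves out a library set apart by these same data. Its small standard errors and p-values depend on that choice and are not independent evidence. That fit called 65.6% of all genes tested in it. All 7 HEK293 markers were detected in every library, with a summed level of 846 to 864 CPM (TMM-scaled counts divided by library size and given on the usual CPM scale) in control replicates 1 and 2, 547 in control replicate 3 and 440 to 526 in the knockout, where 2 of the 7 (LHX1 and NEFM) were called lower. The 4 blood and endothelial markers in the table summed to at most 0.298 CPM in any library. The 5 fibroblast markers summed to 24.0 to 29.4 CPM in the controls and 25.5 to 25.8 in the knockout, none of them at 0 in every library of a group, and 3 of the 5 were called (DCN and LUM higher, COL1A1 lower). DCN, called higher, held 0, 1 and 1 counts in control libraries against 30, 33 and 33 in knockout libraries, while the summed level of the 5 lay inside the range of the controls. The part of these markers in the results below was not tested.

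Of the 10 genes, IGFBP4 and IGFBP7 fell in FAM60A-knockout cells, IGFBP4 by 3.92-fold and IGFBP7 by 8.18-fold. IGFBP2 was 1.74-fold higher without passing the adjusted threshold, and the IGF2BP genes and IGF1R differed by less than 1.5-fold in the fit of all 6 libraries. The fall of IGFBP4 was of the same size with control replicate 3 and without it. For IGFBP3, IGFBP5 and IGFBP7 this library lay at least 4-fold away from the mean of control replicates 1 and 2, so that the 3 controls did not describe a single level. In bulk RNA, fewer cells with a transcript and less of it in each cell cannot be told apart.

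In the edgeR quasi-likelihood test, 2 of the 10 genes were called at an adjusted p of at most 0.05, where 16.6% of the 20992 genes tested were called. Both were lower, against 8.67% of all genes called lower. Both also passed a threshold of 1 on the size of the log2 fold change, against 7.06% of all genes. The groups did not overlap for 4 of the 10 (IGFBP2, IGFBP4, IGFBP7 and IGF2BP1), and 41.6% of all genes tested showed such groups. The share called in either direction and the share without overlap were therefore close to those of all genes, and with 10 genes the other shares rest on the same 2. An unadjusted edgeR p of at most 0.05 was reached by 4 genes, IGFBP2, IGFBP4, IGFBP7 and IGF1R. The share of all genes at that unadjusted level was not counted, so this number is not read as a result about the 10. The median log2 fold change of the 10 was -0.22, against -0.0081 for all genes. A lower fitted level was found for 7 of the 10, against 10628 of the 20992 genes tested. Without control replicate 3, 9 of the 10 were called (IGF2BP2 was not), against 65.6% of 21686 genes. With that fold threshold these were IGFBP2, IGFBP3, IGFBP4, IGFBP5 and IGFBP7, 5 of the 10, against 22.9% of all genes. The fold changes with and without this library are plotted together.

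**Figure D1:**
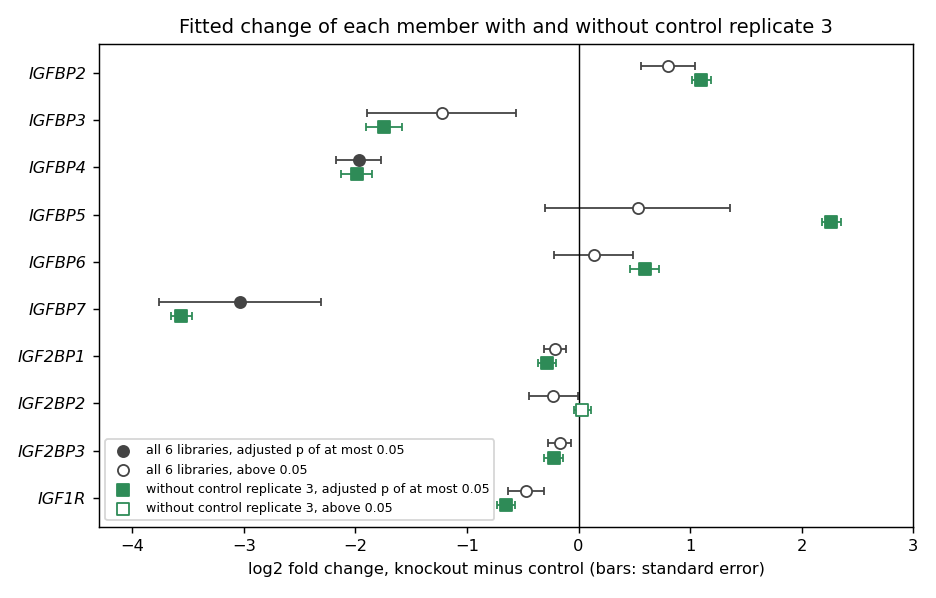
Fitted log2 fold change (knockout minus control, x axis) of the 10 genes with bars of 1 standard error, from all 6 libraries (circles) and without control replicate 3 (squares), filled where the edgeR adjusted p was at most 0.05. IGFBP4 sits at -1.97 and -1.99 in the 2 fits, whereas IGFBP5 moves from 0.53 to 2.27 and its bar shrinks from 0.83 to 0.083.

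IGFBP4 (ENSG00000141753; chr17:40443450-40457725, GRCh38.p14, plus strand) encodes a secreted protein best known for inhibiting IGF action. Its level was 5.07, 6.26 and 5.82 CPM in control replicates 1, 2 and 3, against 1.45, 1.69 and 1.23 CPM in knockout replicates 1, 2 and 3. The 3 controls lay close together, control replicate 3 between the other two, and every knockout library was far below them. The mean fell from 5.71 ± 0.599 CPM in controls to 1.46 ± 0.226 CPM in the knockout (SD, n = 3), and the log2 fold change was -1.97 ± 0.20 (SE; edgeR adjusted p = 0.00482). Without control replicate 3 it was -1.99 (SE 0.14, edgeR adjusted p = 5.22e-11). The call held in 11 of 12 alternatives and was lost without knockout replicate 1 (edgeR adjusted p = 0.0542). Across the fits that left out a library the log2 fold change lay between -2.08 and -1.86. These levels rest on 493, 601 and 562 control counts and 122, 148 and 109 knockout counts.

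IGFBP7 (ENSG00000163453; chr4:57030773-57110385, minus strand) encodes a secreted protein that binds IGFs with low affinity and is also known as an extracellular matrix protein. It had 76.8 and 88.4 CPM in control replicates 1 and 2, 10.7 CPM in control replicate 3, and 7.61, 7.53 and 6.34 CPM in the knockout libraries. Control replicate 3 lay just above the knockout libraries and far below the other controls, so the groups were separate but the controls were split. The mean was 58.6 ± 41.9 CPM in controls and 7.16 ± 0.712 CPM in the knockout (SD, n = 3), a log2 fold change of -3.03 ± 0.73 (SE; edgeR adjusted p = 0.0383). Leaving out control replicate 3 gave -3.56 (SE 0.092, edgeR adjusted p = 3.37e-18), or 11.8-fold. The call held in 5 of 12 alternatives. It was lost without control replicate 1 (0.0964), control replicate 2 (0.108), knockout replicate 1 (0.156), knockout replicate 2 (0.135) or knockout replicate 3 (0.158), each an edgeR adjusted p. It was also lost in limma-voom (adjusted p = 0.119). POLR2B overlaps IGFBP7 on the opposite strand and held 16065 to 21165 counts, and the strand setting of the counting is not given in the sources used here.

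IGFBP2 (ENSG00000115457; chr2:216632828-216664436, plus strand) encodes a binding protein that is abundant in fetal tissue and many tumours. Its level was 84.3 and 98.4 CPM in control replicates 1 and 2, 162 CPM in control replicate 3, and 192, 214 and 195 CPM in the knockout libraries. Control replicate 3 stood between the other controls and the knockout, and no control reached the lowest knockout library. The mean was 115 ± 41.4 CPM in controls and 200.2 ± 12.2 CPM in the knockout (SD, n = 3), a log2 fold change of 0.80 ± 0.25 (SE; edgeR adjusted p = 0.0718) that missed the threshold. Without control replicate 3 it was 1.10 (SE 0.087, edgeR adjusted p = 4.14e-10), and DESeq2 on all 6 libraries also called it (adjusted p = 0.0186). Over the 12 alternatives its adjusted p reached 0.2.

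IGFBP5 (ENSG00000115461; chr2:216672105-216695549, minus strand) encodes a binding protein that attaches to extracellular matrix. It lies tail to tail with IGFBP2, 7669 bases away. IGFBP5 had 15.1 and 15.4 CPM in control replicates 1 and 2, 125 CPM in control replicate 3, and 73.5, 73.1 and 78.2 CPM in the knockout libraries. Control replicate 3 was the highest of all 6 libraries, above the knockout, while the other controls were the lowest. The controls therefore gave 51.9 ± 63.5 CPM against 74.9 ± 2.82 CPM in the knockout (SD, n = 3), and the log2 fold change of 0.53 had a standard error of 0.83 (edgeR adjusted p = 0.686). Leaving out control replicate 3 gave 2.27 (SE 0.083, edgeR adjusted p = 1.15e-15), or 4.81-fold. DESeq2 gave no adjusted p for IGFBP5 in all 6 libraries.

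IGFBP3 (ENSG00000146674; chr7:45912245-45921272, minus strand), which encodes the main IGF carrier of serum, was the least expressed of the 10. Its counts were 207 and 239 in control replicates 1 and 2, 32 in control replicate 3, and 63, 59 and 61 in the knockout libraries, or 2.13, 2.49, 0.331, 0.748, 0.672 and 0.691 CPM. Control replicate 3 was below every knockout library, and the other controls were above them. The log2 fold change was -1.23 ± 0.66 (SE; edgeR adjusted p = 0.238), and without control replicate 3 it was -1.74 (SE 0.16, edgeR adjusted p = 4.43e-09).

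IGFBP6 (ENSG00000167779; chr12:53097667-53102340, plus strand) encodes a binding protein that prefers IGF2 over IGF1. It had 2.53 and 2.81 CPM in control replicates 1 and 2, 5.89 CPM in control replicate 3, and 4.24, 4.58 and 3.52 CPM in the knockout libraries. The knockout libraries lay between the low controls and the high control replicate 3. The log2 fold change was 0.14 ± 0.35 (SE; edgeR adjusted p = 0.816), and without control replicate 3 it was 0.59 (SE 0.13, edgeR adjusted p = 0.000441). IGFBP1, the remaining classical binding protein, had at most 2 counts in any library and was not tested.

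IGF1R (ENSG00000140443; chr15:98648539-98964530, plus strand), the signalling receptor of both factors, had 113 and 109 CPM in control replicates 1 and 2, 77.3 CPM in control replicate 3, and 69.3, 68.2 and 78.2 CPM in the knockout libraries. Control replicate 3 lay inside the range of the knockout, so the groups overlapped. The log2 fold change was -0.47 ± 0.16 (SE; edgeR adjusted p = 0.0943) and missed the threshold in every alternative but that without control replicate 3, where it was -0.65 (SE 0.079, edgeR adjusted p = 3e-07).

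**Figure D2:**
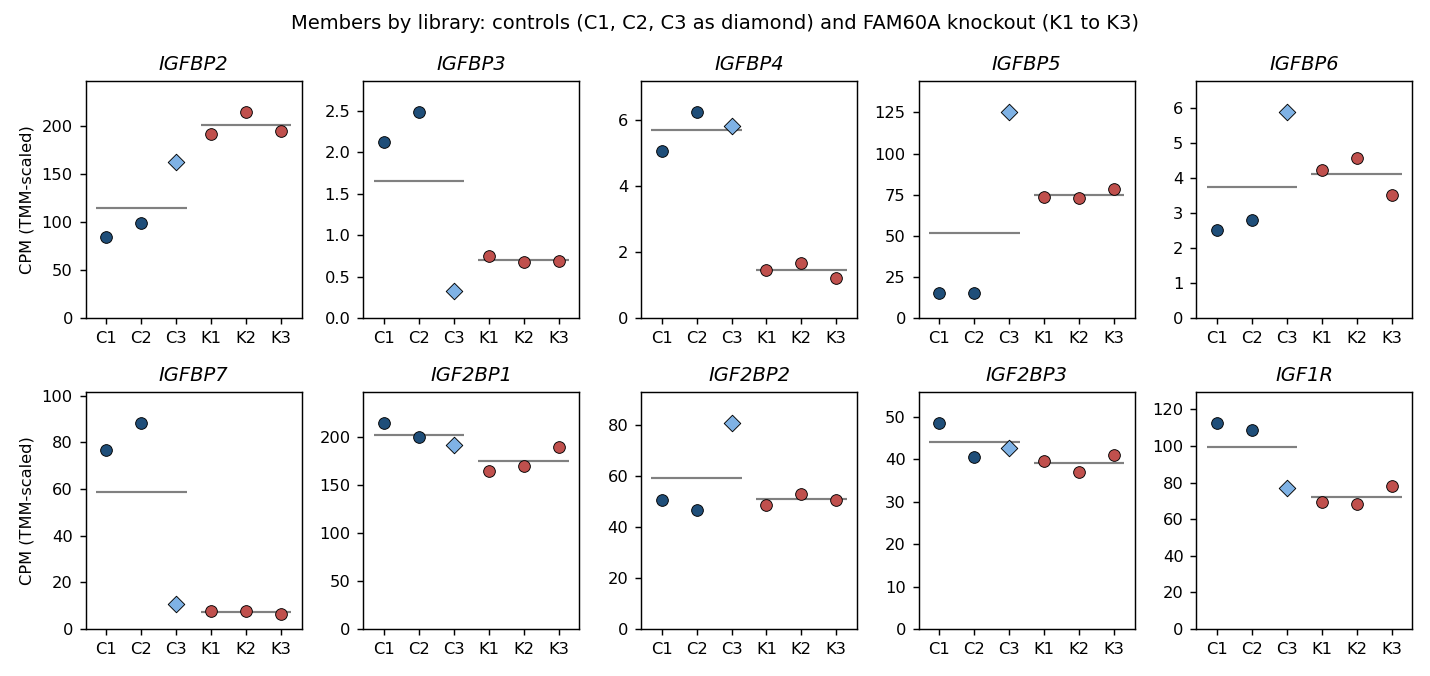
Level of each of the 10 genes (y axis, TMM-scaled CPM, from 0) in control libraries C1 and C2 (dark circles), C3 (light diamond) and knockout libraries K1 to K3 (red circles), with a line at each group's mean. In log2 CPM, the knockout libraries span less than the 3 controls for every gene but IGFBP4 (0.444 against 0.302) and IGF2BP1 (0.202 against 0.164). C3 is at least 4-fold away from the mean of C1 and C2 in the panels of IGFBP3, IGFBP5 and IGFBP7.

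None of the 3 IGF2BP genes was called in the fit of all 6 libraries. IGF2BP1 (ENSG00000159217; chr17:48996558-49056145, plus strand), an oncofetal stabilizer of mRNAs such as MYC, had 215, 200.1 and 191 CPM in control replicates 1, 2 and 3, against 164, 170 and 189 CPM in the knockout libraries. The lowest control stood just above the highest knockout library, so the groups met without overlapping. The log2 fold change was -0.21 ± 0.097 (SE; edgeR adjusted p = 0.178), and -0.28 without control replicate 3 (SE 0.082, edgeR adjusted p = 0.00513).

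IGF2BP2 (ENSG00000073792; chr3:185643130-185825042, minus strand), the member of this family that is also expressed widely in adult tissue, had 50.7 and 46.5 CPM in control replicates 1 and 2, 81.0 CPM in control replicate 3, and 48.7, 53.1 and 50.7 CPM in the knockout libraries. Control replicate 3 was above all others, which overlapped. The log2 fold change was -0.22 ± 0.22 (SE; edgeR adjusted p = 0.501) and 0.034 without control replicate 3 (SE 0.077, edgeR adjusted p = 0.719). It was the only gene of the 10 that was called in none of the 12 alternatives.

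IGF2BP3 (ENSG00000136231; chr7:23310209-23470491, minus strand), the remaining member of the family and a tumour marker, had 48.7, 40.7 and 42.7 CPM in control replicates 1, 2 and 3, against 39.5, 37.0 and 41.0 CPM in the knockout libraries. The groups overlapped, and control replicate 3 lay between the other controls. The log2 fold change was -0.17 ± 0.11 (SE; edgeR adjusted p = 0.299), and -0.22 without control replicate 3 (SE 0.085, edgeR adjusted p = 0.0271). MALSU1 overlaps IGF2BP3 on the opposite strand. In single comparisons of 3 libraries with 3, a two-sided exact permutation test gave 0.1, its smallest possible p, for IGFBP2, IGFBP4, IGFBP7 and IGF2BP1.

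The order of the genes in the knockout differed from that in control replicates 1 and 2, but hardly from that in control replicate 3. Levels between genes are given as CPM per kilobase of merged exons. In the controls the order was IGFBP7 (30.4 ± 21.7), IGFBP2 (24.2 ± 8.74), IGF2BP1 (21.0 ± 1.21), IGF2BP2 (11.1 ± 3.53), IGFBP5 (8.03 ± 9.82), IGF1R (7.14 ± 1.39), IGF2BP3 (5.16 ± 0.487), IGFBP6 (2.78 ± 1.38), IGFBP4 (2.59 ± 0.272) and IGFBP3 (0.361 ± 0.253), each a mean with SD and n = 3. Among these neighbours, only the steps from IGF2BP1 to IGF2BP2, from IGF2BP3 to IGFBP6 and from IGFBP4 to IGFBP3 were free of overlap between libraries. In the knockout the order was IGFBP2 (42.2 ± 2.57), IGF2BP1 (18.1 ± 1.35), IGFBP5 (11.6 ± 0.437), IGF2BP2 (9.54 ± 0.406), IGF1R (5.16 ± 0.394), IGF2BP3 (4.59 ± 0.236), IGFBP7 (3.71 ± 0.369), IGFBP6 (3.06 ± 0.402), IGFBP4 (0.661 ± 0.103) and IGFBP3 (0.154 ± 0.00863). Here only IGFBP7 and IGFBP6 overlapped as neighbours. IGFBP7 had rank 1 in control replicates 1 and 2 and rank 7 in the knockout, and IGFBP5 had ranks 8 and 3. In control replicate 3 they had ranks 6 and 3, and its order was that of the knockout but for a swap of IGFBP7 and IGF2BP3.

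Per kilobase of merged exons, the summed level of the 6 secreted binding proteins differed little while its makeup turned over. This holds for that measure only. The merged exons span 4742 bases in IGFBP2, 6466 in IGFBP5 and 1930 in IGFBP7. Without division by length, IGFBP2 and IGFBP5 weigh more against IGFBP7. Mean CPM of IGFBP2, IGFBP5 and IGFBP7 was 91.3, 15.2 and 82.6 in control replicates 1 and 2. It was 200.2, 74.9 and 7.16 in the knockout, and control replicate 3 had 162, 125 and 10.7 CPM. IGFBP2 thus gained more CPM than IGFBP7 lost, so a total in CPM would be higher in the knockout than in control replicates 1 and 2. Such a sum was not computed. The sum was 64.5 to 74.4 CPM per kilobase in control replicates 1 and 2, 66.1 in control replicate 3 and 59.7 to 64.7 in the knockout, with overlap between the groups. IGFBP7 made up 61.6 to 61.7% of it in control replicates 1 and 2, 8.34% in control replicate 3 and 5.50 to 6.61% in the knockout. IGFBP2 made up 27.5 to 27.9%, 51.7% and 67.7 to 69.8% in the same order. The share of IGFBP5 was 3.20 to 3.61%, 29.3% and 17.5 to 20.2%. Control replicate 3 thus lay nearer the knockout libraries in its shares of IGFBP7, IGFBP2 and IGFBP5, but not of IGFBP4, whose share was 3.56 to 3.81%, 3.99% and 0.936 to 1.18%. Shares of one sum depend on each other and were not tested.

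The IGF2BP family kept its makeup more nearly. Its sum was 34.3 to 37.5 CPM per kilobase in control replicates 1 and 2, 40.1 in control replicate 3 and 30.8 to 34.0 in the knockout. IGF2BP1 supplied 59.4 to 60.6%, 49.6% and 55.2 to 57.8% of it, and was the leading member in every library. The share of IGF2BP2 was 25.4 to 25.5%, 37.9% and 28.0 to 31.2%.

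**Figure D3:**
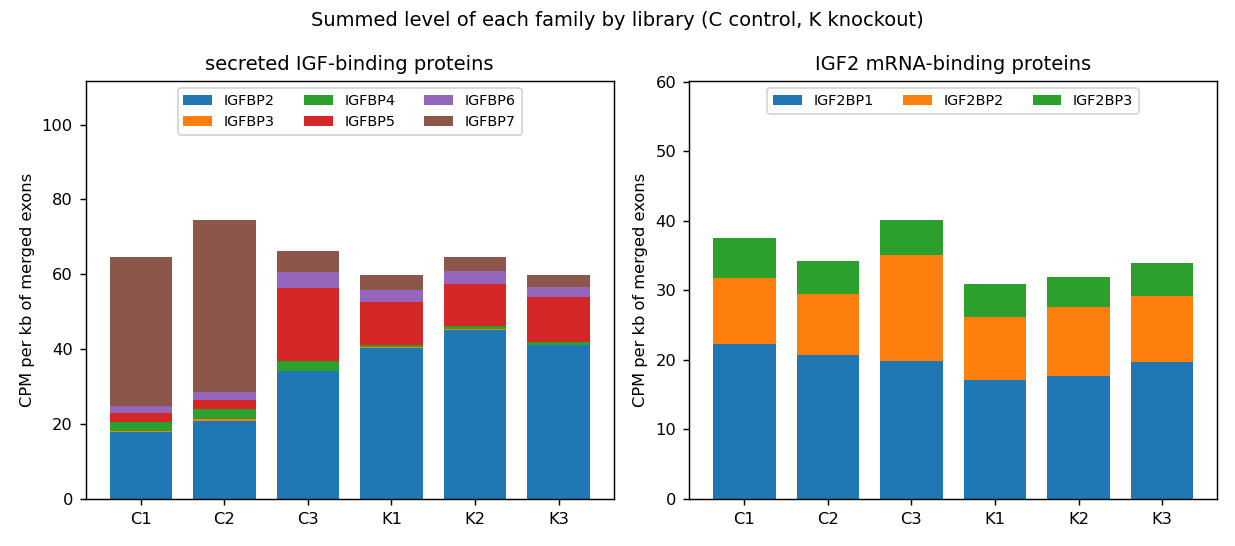
Summed level (y axis, CPM per kilobase of merged exons, from 0) of the secreted IGF-binding proteins (left) and the IGF2 mRNA-binding proteins (right) in each library, stacked by gene. IGFBP7 fills most of the bar in C1 and C2 (61.6 to 61.7%) and little of it in C3 and K1 to K3 (8.34% and 5.50 to 6.61%), while the 3 IGF2BP genes keep the same order of size in every bar.

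Across the 10 genes, control replicate 3 lay between the mean of the other controls and the knockout mean in 5, above the means of both in 4 (IGFBP4, IGFBP5, IGFBP6 and IGF2BP2) and below both in 1 (IGFBP3). It was closer to the knockout mean than to control replicates 1 and 2 for 7 of the 10, against the 58.9% of all genes given above. The genes whose log2 CPM followed IGFBP7 most closely over the 6 libraries, among the 14689 genes whose mean count was 100 or more, were COLGALT1 (Pearson r = 0.99985), ENSG00000279369 (0.99979) and TMEM200B (0.9997). Those nearest to IGFBP2 were ST6GALNAC4 (0.99879), FUCA1 (0.9986) and CCDC8 (0.99848). These values describe 6 libraries that fall into few levels, with control replicate 3 apart, and are given without a test.

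Promoter sequence was available from RefSeq (GRCh38.p14) for 8 of the 10 genes, in 11 windows. Genes without a window were IGFBP7 and IGF2BP1. The 120 bases before the annotated start are shown for IGFBP4, the gene whose fall did not depend on control replicate 3, and for the neighbours IGFBP2 and IGFBP5, which share a locus but not a promoter. Capitals mark a TATA box (TATAAA) or a GC box (GGGCGG) on either strand, and each sequence reads towards its gene. Of the 3 windows of IGFBP2, that of its MANE Select transcript is shown.
IGFBP4, chr17:40443330-40443449, plus strand: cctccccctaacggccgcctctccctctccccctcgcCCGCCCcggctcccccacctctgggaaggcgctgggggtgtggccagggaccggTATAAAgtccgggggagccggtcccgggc
IGFBP2, chr2:216633300-216633419, plus strand: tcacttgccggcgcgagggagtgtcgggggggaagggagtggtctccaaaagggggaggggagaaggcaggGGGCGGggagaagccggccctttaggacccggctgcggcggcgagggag
IGFBP5, chr2:216695550-216695669, minus strand: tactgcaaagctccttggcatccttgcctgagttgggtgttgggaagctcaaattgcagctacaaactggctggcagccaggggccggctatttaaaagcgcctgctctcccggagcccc

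The IGFBP4 stretch holds a TATA box near the start and a GC box further away, that of IGFBP2 a GC box, and that of IGFBP5 neither. Only the exact letters given above were searched, so other forms of either element are not marked. Within the 250 bases before each start, searched on both strands with overlapping matches counted, 7 of the 11 windows held a GC box and 2 a TATA box, in IGFBP4 and in a second window of IGF2BP2. Of all 35116 promoter windows, 42.6% held a GC box and 10.7% a TATA box. The E-box CACGTG, found in 6.34% of all windows, occurred in IGF2BP3. The TEAD motif GGAATG, found in 11.9%, occurred in IGFBP5, IGFBP6 and the second IGF2BP2 window. A match of letters does not show a bound site.

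Around the genes, the nearest protein-coding neighbour on each side was looked up. TNS3 on the IGFBP3 side was the only neighbour called in the fit of all 6 libraries (log2 fold change -0.96, SE 0.13, edgeR adjusted p = 0.00947), and it lies 1353882 bases from IGFBP3. TOP2A, the neighbour of IGFBP4 at 25554 bases, had a log2 fold change of -0.47 (edgeR adjusted p = 0.0561), and NOA1, the neighbour of IGFBP7 at 53167 bases, one of 0.23 (edgeR adjusted p = 0.261). Without control replicate 3, TNS3 (-0.97), TOP2A (-0.59) and NOA1 (0.31) were all called (edgeR adjusted p = 6.62e-09, 8.66e-06 and 0.00291), as were most of the other neighbours tested. That fit called 65.6% of all 21686 genes, and whether the neighbours differ from this share was not tested.

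The other genes of the IGF pathway were counted from a list of 45, of which 40 were tested and 7 were called, 1 higher and 6 lower. The share called in either direction is near the 16.6% of all genes, and 8.67% of all genes were called lower. The median log2 fold change of the list was -0.12, against -0.0081 for all genes. Without control replicate 3, 25 were called, 7 higher and 18 lower, against 65.6% of all genes (7019 higher and 7202 lower).

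Among ligands, IGF1 had at most 2 counts and INS none in any library. IGF2 held 103, 134 and 373 control counts (replicates 1, 2 and 3) against 49, 82 and 68 knockout counts. The groups were apart, with control replicate 3 the highest, and the log2 fold change was -1.46 ± 0.52 (SE; edgeR adjusted p = 0.104). IGF2 was called by DESeq2 on all 6 libraries (adjusted p = 0.028) and by edgeR without control replicate 3, where the log2 fold change was -0.71 (adjusted p = 0.00395). Of the other receptors, INSR, the insulin receptor, had a log2 fold change of -0.16 (edgeR adjusted p = 0.313), and of -0.12 without control replicate 3 (edgeR adjusted p = 0.176). IGF2R, which takes up and degrades IGF2, held 28168, 24766 and 9079 counts in control libraries against 15875, 15215 and 19847 in knockout libraries. Its knockout libraries lay inside the range of the controls (log2 fold change -0.13, edgeR adjusted p = 0.844), and IGF2R was called in the fit without control replicate 3 (-0.52, edgeR adjusted p = 7.7e-05).

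The proteins that act on IGFBP4 outside the cell included calls in both directions. PAPPA, the metalloprotease that cleaves IGFBP4, held 180, 124 and 98 counts in control libraries against 2, 8 and 7 in knockout libraries. STC1, a stanniocalcin that inhibits that protease, held 536, 436 and 706 counts in control libraries against 1670, 1839 and 1527 in knockout libraries. PAPPA fell, at a log2 fold change of -4.38 ± 0.48 (SE; edgeR adjusted p = 0.00593) and STC1 rose with one of 1.74 (SE 0.21, edgeR adjusted p = 0.00697). In both genes the groups were far apart, control replicate 3 included, and without that library the values were -4.59 and 1.91. The PAPPA call was lost without knockout replicate 3 (0.0543), and the STC1 call without knockout replicate 1 (0.0614) or 3 (0.0527), each an edgeR adjusted p. The related inhibitor STC2 had 4659 and 4318 counts in control replicates 1 and 2, 17648 in control replicate 3 and 12089 to 12754 in the knockout, and its log2 fold change of 0.64 was not called (edgeR adjusted p = 0.447). In the fit without control replicate 3 STC2 was called, at 1.59 (edgeR adjusted p = 1.76e-13). HTRA1, a serine protease that also cleaves binding proteins, had a log2 fold change of -0.72 (edgeR adjusted p = 0.193), and of -0.23 without control replicate 3 (edgeR adjusted p = 0.0213).

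IGFBPL1, which encodes a protein related in sequence to IGFBP7, held 912 and 1085 counts in control replicates 1 and 2, 214 in control replicate 3 and 3, 9 and 12 in the knockout. Control replicate 3 lay between, but nearer to the other controls in ratio. IGFBPL1 fell, at a log2 fold change of -6.36 ± 0.82 (SE; edgeR adjusted p = 0.00854), and -6.82 without control replicate 3. Leaving out any of the 3 knockout libraries ended the call (edgeR adjusted p 0.0571 to 0.0638). LRP1, an endocytic receptor that binds IGFBP3, held 2828, 2639 and 4440 counts in control libraries against 1520, 1419 and 1833 in knockout libraries, and fell, at a log2 fold change of -0.90 ± 0.23 (SE; edgeR adjusted p = 0.0429). Without any single library other than control replicate 3, LRP1 was not called (edgeR adjusted p 0.0685 to 0.171), and without that library its log2 fold change was -0.66.

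Downstream of IGF1R, the adaptor genes IRS2 and GRB10 fell. IRS2, which carries the signal to PI3K, held 1894, 1854 and 3392 counts in control libraries against 903, 1059 and 939 in knockout libraries (log2 fold change -1.14, SE 0.26, edgeR adjusted p = 0.0328). GRB10, an adaptor that restrains the receptor, held 7218, 7419 and 8551 counts in control libraries against 3630, 4169 and 3826 in knockout libraries (log2 fold change -0.84, SE 0.10, edgeR adjusted p = 0.00762). In both genes control replicate 3 was the highest control, so it did not approach the knockout. In the fit without it the log2 fold changes were -0.83 for IRS2 and -0.79 for GRB10. The IRS2 call was lost without any single library other than control replicate 3 (edgeR adjusted p 0.0521 to 0.151). That of GRB10 was lost without knockout replicate 1 (0.0722) or 3 (0.0699), each an edgeR adjusted p. IRS1 showed the other pattern, with 3379 and 3180 counts in control replicates 1 and 2, 809 in control replicate 3 and 732 to 791 in the knockout (log2 fold change -1.52, edgeR adjusted p = 0.0862). Its log2 fold change without control replicate 3 was -1.97 (edgeR adjusted p = 5.81e-15). IRS4, chosen after its values were seen, had the most counts of the IRS genes in every library, between 52904 and 118363, and was not called (log2 fold change 0.56, edgeR adjusted p = 0.228), except without control replicate 3 (0.94, edgeR adjusted p = 3.62e-08). GRB14, another listed adaptor, was higher without being called (log2 fold change 0.97, edgeR adjusted p = 0.16), with no overlap of the groups. In the fit without control replicate 3 GRB14 was called, at 1.61 (edgeR adjusted p = 8.17e-12).

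**Figure D4:**
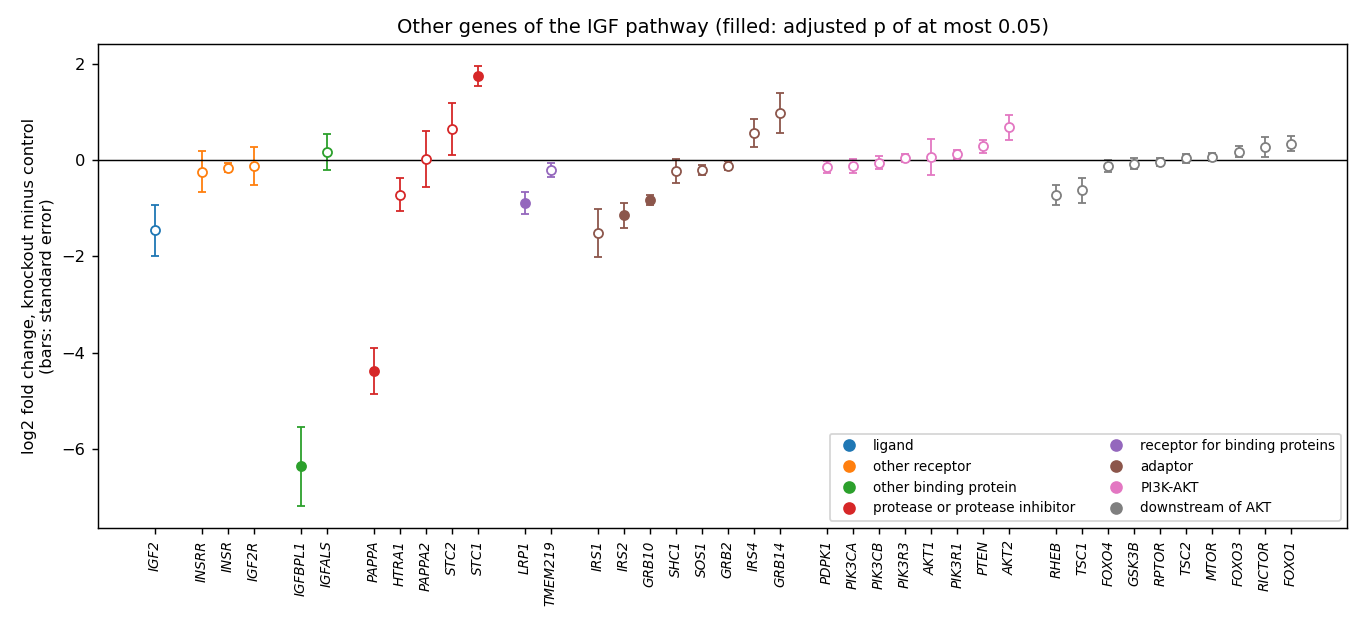
Fitted log2 fold change (y axis, knockout minus control, bars of 1 standard error) of the tested IGF pathway genes other than the 10 described, without 1 called gene that is not reported, grouped by role along the x axis, filled where the edgeR adjusted p was at most 0.05. The filled points are STC1, at 1.74, and 5 genes below 0, of which IGFBPL1 (-6.36) and PAPPA (-4.38) lie lowest.

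For the IGF2BP proteins, 12 transcripts known to be bound by them were listed. Of 11 tested, ACTB alone was called, against 16.6% of all genes, and 5 were called without control replicate 3, against 65.6%. ACTB, whose mRNA IGF2BP1 carries in the cytoplasm, fell, at a log2 fold change of -1.20 ± 0.29 (SE; edgeR adjusted p = 0.04), and was not called without any single library other than control replicate 3 (edgeR adjusted p 0.103 to 0.167). Its log2 fold change without that library was -1.50. MYC held 1900 and 2021 counts in control replicates 1 and 2, 20015 in control replicate 3 and 9470, 11434 and 9546 in the knockout, the arrangement seen for IGFBP5. Its log2 fold change was 0.50 ± 0.91 (SE; edgeR adjusted p = 0.731), and 2.50 without control replicate 3 (edgeR adjusted p = 1.62e-15). HMGA2 (0.10, edgeR adjusted p = 0.437) and LIN28B (-0.29, edgeR adjusted p = 0.425) were not called. In the fit without control replicate 3 LIN28B was called (-0.56, edgeR adjusted p = 1.37e-06) and HMGA2 was not (0.096, edgeR adjusted p = 0.262).

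Of 5 listed partner proteins of IGF2BP1, 1 was called, against 16.6% of all genes, namely ELAVL1, which fell (log2 fold change -0.40, edgeR adjusted p = 0.0429). Of 14 genes of the m6A modification that IGF2BP proteins can read, 3 were called, a share near the 16.6% of all genes: YTHDF1 (-0.74, edgeR adjusted p = 0.00994) and FTO (-0.46, edgeR adjusted p = 0.0225) fell and YTHDC2 (0.57, edgeR adjusted p = 0.0114) rose. In the let-7 and LIN28 axis it is let-7 that restrains IGF2BP transcripts. Of the 6 tested genes of this axis, 2 were called, against the same 16.6%. TUT4 (-0.32, edgeR adjusted p = 0.0451) fell and TUT7 (0.77, edgeR adjusted p = 0.0105) rose, both uridylyltransferase genes. Without control replicate 3 the log2 fold changes were -0.45 (ELAVL1), -0.84 (YTHDF1), -0.50 (FTO), 0.55 (YTHDC2), -0.32 (TUT4) and 0.71 (TUT7), all called. Each of these 6 calls was lost without knockout replicate 1 and without knockout replicate 3 (edgeR adjusted p 0.0745 to 0.195), and of the 6 genes only YTHDF1 was called without knockout replicate 2 (0.0485). Without control replicate 1, ELAVL1 (0.0972), FTO (0.0728) and TUT4 (0.106) were not called. Without control replicate 2 the same 3 genes (0.071 to 0.139), YTHDC2 (0.0563) and TUT7 (0.0505) were not called.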

How the data were processed

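RNA-seq libraries (3 control, 3 FAM60A knockout) were grouped by the condition in their labels. Per the labels and the study's methods, libraries were poly(A)-selected, strand-specific and paired-end. The submitters' processing notes name STAR 2.7.10b, featureCounts 2.0.0 and hg38, the methods Trimmomatic and Salmon on hg38, and the extraction notes hg19. The annotation release is not given in the sources used here. The authors deposited unnormalized whole-number counts for 62754 Ensembl genes, and 60878 of these had a symbol. Totals per library lay between 88361827 and 93346824, and a group with at most 3 counts in every library was taken as being at the floor, which covers counting error only.

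Counts were tested with edgeR 4.0.16 (R 4.3.3) after TMM normalization and a low-count filter (filterByExpr, minimum count 10), by the two-sided quasi-likelihood test with Benjamini-Hochberg adjustment over 20992 genes. Calls used an adjusted p of at most 0.05, alone or with a threshold of 1 on the size of the log2 fold change. Log2 CPM used a prior count of 2. The study's methods name limma, run here as an alternative (limma-voom, limma 3.58.1, quantile normalization). Other alternatives were DESeq2 1.42.0, library size without TMM, no filter, at least 10 counts in every library, the replicate number as a block, and leaving out each library in turn. The fit was tested on simulated data. Merged exon lengths came from GENCODE on GRCh37, and coordinates and promoters from RefSeq GRCh38.p14. Motifs and levels were computed in Python 3.11.15 and plotted with matplotlib 3.10.9.

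The 10 genes and the gene lists were chosen with earlier results of these data known, so no count over them is independent evidence. From each list, genes past the threshold, ligands, receptors and binding proteins could be named, and of the rest up to 6 by absolute log2 fold change. For IGFBP2 and IGFBP7, the highest and lowest fold change of the 10, the 3 genes of most similar pattern were named, and for each gene its neighbours were examined. Any other gene is marked in the text as picked after its values were seen. One called gene of the IGF pathway list is counted but not reported here by name or value.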

Additional observations from a re-analysis of the deposited data

How the results depend on the processing

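Of the 10 genes, 2 were called in the fit of all 6 libraries, with or without a threshold of 1 on the absolute log2 fold change. The number was 1 with limma-voom and 1 with the replicate block, at either threshold. Leaving out a library gave 0 (without knockout replicate 1) to 9 calls (without control replicate 3), and 0 to 5 at the fold threshold. Of the other IGF pathway genes, 7 were called, against 0 with the replicate block and 0 (without knockout replicate 3) to 25 (without control replicate 3) when a library was left out. Signs turned for IGFBP6 (-0.10 without control replicate 1, -0.035 without control replicate 2, 0.59 at the other end, without control replicate 3), IGF2BP2 (0.034 without control replicate 3, -0.38 at the other end, without control replicate 2), IGF2R (0.0028 with the replicate block, 0.12 and 0.023 without control replicate 1 or 2, -0.52 at the other end, without control replicate 3) and HMGA2 (-0.012 by library size without TMM). Library size without TMM moved the median of all genes to -0.12. Each cause was not tested.

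Over all genes, 3491 were called, against 5581 with DESeq2, 407 with the replicate block, and 1049, 796, 14221, 167, 503 and 189 without control replicates 1, 2 and 3 and knockout replicates 1, 2 and 3. Replicate numbers did not pair the libraries: deviations of same-numbered libraries correlated at 0.0101, 0.0306 and -0.0362, and of the 10 genes the block kept only the IGFBP4 call, and that of SINHCAF was lost (edgeR adjusted p = 0.0551). IGFBP3 had the fewest counts of the 10 genes (32 to 239 per library).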
